A study of Homo sapiens with 3 samples.

Results

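The genes described here act in homologous recombination, in the DNA damage checkpoint and in the Fanconi anaemia pathway. They were taken from a list of 35 gene symbols, and every RefSeq transcript in the table that carries one of those symbols was used, which gave 60 of 29156 transcripts and 35 of 18877 symbols. Messenger RNA of A2780, an established ovarian cancer cell line, was sequenced in 3 libraries. The control cells carried the pBABE control vector (1 library), and the other cells expressed exogenous miR-181a and were sequenced as p181a #1 and p181a #2 (1 library each, called pool 1 and pool 2). Both terms, polyclonal pool and clone, are used for the latter cells in the labels. Nothing there says whether they were grown separately, so each p-value reflects only how far 2 libraries differ, which may be technical.

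Homologous recombination repairs a broken chromosome by copying the sister chromatid. The MRE11-RAD50-NBN complex and RBBP8 (also called CtIP) trim the broken ends, the kinases ATM and ATR signal the damage, and BRCA1, PALB2 and BRCA2 prepare the single strand for exchange with the sister. The Fanconi core complex attaches ubiquitin to FANCD2 and FANCI where the strands are cross-linked. Inherited loss of BRCA1 or BRCA2 raises the risk of ovarian carcinoma, and tumours that lack this repair are sensitive to platinum and to PARP inhibitors. A microRNA pairs through its seed with sites that lie mostly in 3 prime UTRs.

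The seed of miR-181a-5p was searched in the 3 prime UTR of the canonical transcript of each gene (GENCODE on GRCh37, the same assembly as hg19), since sites of this kind are what the microRNA pairs with. The mature sequence is from RefSeq (GRCh38.p14) and has its seed, bases 2 to 8, in capitals. A site was counted where the UTR held TGAATGT, which pairs with the whole seed, or GAATGTA, which pairs with bases 2 to 7 and has an A opposite the first base. TGAATGTA, which meets both, is the strongest of these classes. Below the mature sequence stand the sites found in ATM, TOPBP1, CHEK1, BRIP1, FANCM and MRE11A, read 5′ to 3′ on the strand of the gene, with the match in capitals.
miR-181a-5p: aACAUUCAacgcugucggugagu
ATM, chr11:108239749-108239778, plus strand: tttagtactatTGAATGTAttactttactg
ATM, chr11:108236347-108236375, plus strand: gtgggttttttTGAATGTtggttttaata
TOPBP1, chr3:133320023-133320051, minus strand: aattgaaagccTGAATGTgactgtgatag
CHEK1, chr11:125526579-125526607, plus strand: acatttccactTGAATGTctagtaggcat
FANCM, chr14:45669703-45669731, plus strand: gaaaacttaacTGAATGTttatctgacca
BRIP1, chr17:59757342-59757370, minus strand: ttcattactgaGAATGTAcatagagatgt
MRE11A, chr11:94149380-94149408, minus strand: aattcagacatTGAATGTgtattaaaatg

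Sites were found in 7 of the 35 genes (20%), against 26.3% of the 12287 tested genes with a matched 3 prime UTR. The genes are those listed and NBN, whose site is not printed, and MRE11A has a further site of the GAATGTA kind. The full 8-base site was found in ATM alone among the 35. The 3 prime UTRs had a median length of 1052 bases, against 1236 over the tested genes. No match was found in the canonical 3 prime UTR of RBBP8 or FANCB, the 2 genes that fell, nor in BRCA1, BRCA2 or FANCD2. The UTRs searched for RBBP8 and FANCB were short, at 246 and 162 bases. The canonical transcript was not matched to the transcript in which the fall was seen. A match is a description of the sequence, and the absence of these letters says nothing of other kinds of site.

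Coverage is the median over 50 bp windows along a transcript, so levels can be compared between genes of different length. No counts come with it, and depth is unknown. The median coverage of the members was 15.6 in the vector library and 20.3 and 17.6 in pools 1 and 2. The vector library stands apart from both pools: 62.9% of the 8822 transcripts at 0 in both pools were above 0 there. The part of this in the falls below was not tested. Most defining epithelial and ovarian markers were at 0 in the pools. The summed coverage of 10 epithelial markers was 201.5 in the vector library and 20.3 and 19.6 in the pools, with CDH1 and KRT7 at 0 in all 3 libraries. Of 8 ovarian lineage markers, 6 were at 0 in both pools. Among these, WT1 and SOX17 were at 0 in all 3 libraries, and PAX8 had 4.71 in the vector library. ESR1, also at 0 in both pools, had the highest vector value of the 8, at 104. Endothelial markers summed to 223 in the vector library and 0 and 0.04 in the pools, and immune markers to 67.8, 0.44 and 0.06. The 8 fibroblast markers summed to 611, 1831 and 1493, most of it from COL3A1 (249, 986 and 717) and DCN (144, 480 and 420), while COL1A1 was at 7.41, 0 and 0.71 and FAP at 0 in all 3 libraries. Bulk RNA cannot tell fewer cells of a type from less RNA per cell, and the part of these markers in the results below was not tested.

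No recombination or Fanconi gene rose with miR-181a by the test, and 2 fell, RBBP8 and FANCB, each in 1 of its transcripts. All 34 genes with a vector value were tested, 1 transcript per gene, with limma on log2(coverage + 1), and none was listed at 0 in any library. Of all 12552 genes tested, 1.00% rose and 21.7% fell at a Benjamini-Hochberg adjusted p of 0.05, and the share of the members that fell is below that background. At an unadjusted limma p under 0.05, 3 of the 34 were higher (EME1, RAD52 and ATR) and 2 lower, against 5.39% and 27.8% of all genes tested. None was at least 1 log2 unit higher in both pools (2.53% of all genes tested), and the same 2 genes were at least 1 log2 unit lower in both (27.3%).

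Most of the 34 genes had somewhat more coverage in the pools than in the vector library as deposited, but not after a shift by highly covered genes, given below. Both pools lay above the vector library for 24 genes (44.6% of all genes tested) and below it for 5 (41.8%), and the pools fell on either side of it for the remaining 5, CHEK1, BAP1, XRCC2, FANCC and FANCF. The median log2 fold was 0.38 for the members and 0.07 for all genes tested. Pool 1 was above pool 2 in 32 of the 34, as it was in 77.2% of all genes tested, and the median fold was 0.49 in pool 1 and 0.26 in pool 2. These levels depend on how the libraries are scaled, since the deposited values have no stated common scale. With the library medians set equal, the median of all genes moved to 0.49 and that of the members to 0.80, with 28 that rose and 2 that fell (50.6% and 29.5% of all genes) and 30 higher in both pools (60.9%). With each pool shifted by its median ratio in genes above a coverage of 50 (0.55 and 0.21), the medians were -0.31 and 0.0034, with 4 that rose and 5 that fell (8.28% and 42.9%) and 15 higher in both pools (28.7%). The 4 that rose with this shift, EME1, RAD50, RAD52 and XRCC3, passed at lower log2 folds (0.61 to 0.67) than as deposited (0.99 to 1.05), where none passed. The number of calls thus does not follow the level alone. With quantile normalization 22 rose and 2 fell (37.3% and 24.0%) and 31 were higher in both pools (62.2%). With no filter on low coverage 3 members rose and 2 fell (1.66% and 33.6% of 16737 genes), with 24 higher in both pools (36.5%). Among the 10818 genes above 0 in both pools 0 rose and 2 fell (4.13% and 16.9%), with 24 higher in both pools (51.7%). The members' median stood 0.31 above that of all genes under each of the first 2 rescalings, as without them, since these move every gene alike. It stood 0.50 above with quantile normalization, 0.59 with no filter, 0.22 with a filter at the median, 0.18 with a pseudocount of 10, 0.20 with the transcript chosen by the pools and 0.16 among genes above 0 in both pools. Relative to the median of all genes, 27 of the 34 were higher, and this count was 21 among genes above 0 in both pools and 22 with the transcript chosen by the pools. With a filter at the median it was 17 of the 24 members then tested.

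**Figure D1:**
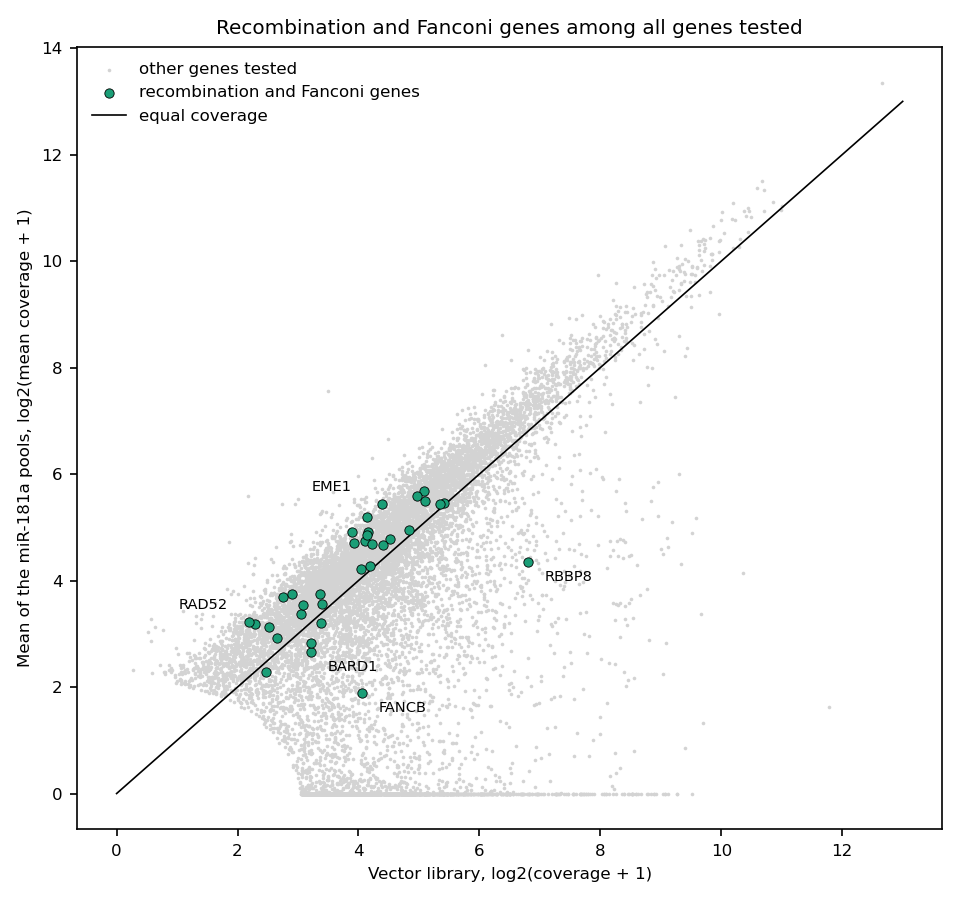
Each point is a gene tested, with log2(coverage + 1) in the vector library on the horizontal axis and the log2 of the pools' mean coverage + 1 on the vertical axis, and the 34 recombination and Fanconi genes in green. Most green points lie on or above the line of equal coverage, and RBBP8 and FANCB lie well below it, in the region of genes with more coverage in the vector library.

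The 5 end-sensing and resection genes held the largest fall of the 34 and 4 genes with higher coverage in both pools (44.6% of all genes tested). RBBP8 (chromosome 18, 20378224 to 20606451 on GRCh37, protein coding), which starts resection with the MRE11 complex, was covered at 110 in the vector library and 19.4 and 19.2 in pools 1 and 2 in its transcript NM_203291. The pools were nearly equal and far below the vector library, a mean log2 difference of -2.45 (SE 0.19, limma adjusted p = 0.022). Its other transcripts, NM_002894 and NM_203292, had vector values of 14.03 and 14.2, pool 1 values of 18.5 and 17.4 and pool 2 values of 18.7 and 18.8. Both of these were above the vector library in both pools, with mean log2 folds of 0.38 and 0.33, so the fall was seen in 1 of 3 transcripts, and the pool values of all 3 were alike. With the mean of the 3 transcripts in place of 1, RBBP8 did not pass the test (log2 fold -1.26, limma adjusted p = 0.089). Of the 8822 transcripts at 0 in both pools, 5549 were above 0 in the vector library. Over all 8822, 1.304% had a vector value at least as large as the gap between vector and pools in NM_203291. This transcript was covered in the pools, so the share is not a test of its fall.

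RAD50 (chromosome 5, 131891711 to 131982041), the ATPase of the MRE11 complex, went the other way. It had 13.9 in the vector library and 31.5 and 26.9 in pools 1 and 2, and its log2 fold was 1.01 (SE 0.26, limma adjusted p = 0.15). A fold above that of RAD50 was found in 4.92% of all genes tested. Its partners differed less. MRE11A, the nuclease, had 7.27, 10.4 and 8.22 in the vector library, pool 1 and pool 2, and NBN, which recruits ATM, had 9.32, 13.3 and 11.7 in the same order. Their log2 folds were 0.31 (SE 0.29) and 0.38 (SE 0.29). TP53BP1, which shields ends from resection, had 33.2 in the vector library and 49.1 and 38.7 in pools 1 and 2. All 4 were higher in both pools, as were 44.6% of all genes tested, and none passed the test.

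Of the 5 checkpoint genes, 4 had higher coverage in both pools (44.6% of all genes tested), at a median fold (log2) of 0.75, and none passed the test. ATR (chromosome 3, 142167849 to 142297575), the kinase that answers to single-stranded DNA, had 3.86 in the vector library and 8.25 and 7.93 in pools 1 and 2. The pools lay close together at about 2.10 times the control. In log2(coverage + 1) the mean difference was 0.90 (SE 0.15), which did not pass (limma adjusted p = 0.084). TOPBP1, which activates ATR, had 16.8, 30.9 and 27.1 in the vector library, pool 1 and pool 2, a mean log2 difference of 0.75 (SE 0.25). CHEK2, a kinase that ATM activates, had 14.2, 25 and 24.9 and a fold of 0.77 in log2 (SE 0.24), though its transcript NM_001005735 showed 0.17. CHEK1, the effector kinase of ATR, had 17.2, 21.0 and 15.9, with the vector library between the pools. TOPBP1 and CHEK1 each carry a site printed above, and neither was below the control in both pools.

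ATM (chromosome 11, 108093771 to 108239829), the kinase that answers to double-strand breaks and the gene with the 8-base site, gave a different picture in each of its transcripts. In NM_138292, which entered the test, coverage was 9.56 in the vector library and 11.5 and 10.2 in pools 1 and 2, a mean log2 difference of 0.16 (SE 0.28, limma adjusted p = 0.70). In NM_000051 it was 2.84, 8.73 and 7.003, a mean log2 difference of 1.20 (SE 0.21) and an adjusted p of 0.086 when each transcript was fitted by limma. The transcripts differed 3.37-fold in the vector library and 1.31-fold and 1.46-fold in the pools. NM_000051 was the only one of the 58 transcripts tested here to be at least 1 log2 unit higher in both pools (3.31% of the 19181 transcripts tested), and those of RBBP8 and FANCB were the 2 as much lower (21.9%). Neither transcript of ATM was lower in a pool than in the vector library.

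BRCA1 and BRCA2 did not pass the test. BRCA1 (chromosome 17, 41196312 to 41322262), which promotes resection and recruits PALB2, had 15.5 in the vector library and 19.7 and 15.7 in pools 1 and 2 in the transcript tested, NM_007297. Its log2 fold was 0.17 (SE 0.31, limma adjusted p = 0.73). Across its 5 transcripts the vector value ran from 7.66 to 16.9, the pool 1 value from 17.6 to 19.7 and the pool 2 value from 11.4 to 15.7, and the mean log2 fold from -0.11 to 0.81. The spread among transcripts was thus 2.20-fold in the vector library and 1.12-fold and 1.38-fold in the pools. BRCA2 (chromosome 13, 32889223 to 32974405), which prepares the resected strand for exchange, had 8.25 in the vector library and 7.14 and 5.06 in pools 1 and 2, below the control in both pools, a mean log2 difference of -0.40 (SE 0.30, limma adjusted p = 0.44).

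The 6 genes of the BRCA1 and BRCA2 group, these 2 included, were split. In both pools 3 were higher and 2 lower (44.6% and 41.8% of all genes tested), and the median log2 fold was 0.09. BARD1, which forms the ubiquitin ligase with BRCA1, had 8.24, 5.75 and 4.86 in the vector library, pool 1 and pool 2 and was lower in both pools (log2 fold -0.56, SE 0.19, limma adjusted p = 0.21). BRIP1, a helicase that binds BRCA1 and is itself a Fanconi gene, had 5.75, 13.04 and 10.6 and was higher in both (0.92, SE 0.29, limma adjusted p = 0.19). PALB2, the bridge between BRCA1 and BRCA2, had 4.75, 7.68 and 7.73. Its pools differed by less than 1 unit of coverage and its log2 fold was 0.60 (SE 0.16, limma adjusted p = 0.16). BAP1, a deubiquitinase found through its binding to BRCA1, had 41.8, 51.5 and 34.8, with the vector library between the pools.

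Of the 6 genes that mediate strand exchange, 5 had higher coverage in both pools (44.6% of all genes tested), at a median fold (log2) of 0.53. None passed the test. RAD52 (chromosome 12, 1020902 to 1099219), which anneals single strands, had 3.57 in the vector library and 8.58 and 8.10 in pools 1 and 2. At 1.03 in log2 (SE 0.16) it came nearest to a rise among the 34 genes (limma adjusted p = 0.070, the lowest of those higher). XRCC3, which acts in the same step, had 16.7, 45.8 and 25.2 in the vector library, pool 1 and pool 2, with a wide gap between the pools and an SE of 0.53 on a log2 fold of 0.99. Its relatives XRCC2, with 27.7, 35.6 and 23.9, and RAD51C, with 39.5, 39.9 and 44.7, had log2 folds of 0.07 (SE 0.39) and 0.09 (SE 0.21). The second transcript of RAD51C, NM_058216, had 41.4, 33.3 and 28.2, below the control in both pools. RAD54L, a translocase of strand exchange, had 16.3, 29.5 and 21.7, and RAD54B, its relative, had 7.47, 11.003 and 10.3, both higher in both pools without passing.

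EME1 had the highest mean fold of the 34 genes in log2(coverage + 1). By the ratio of pool mean to vector value, RAD52 (2.34) and XRCC3 (2.13) were above it. EME1 (chromosome 17, 48450581 to 48458844), the partner that activates the nuclease MUS81, had 20.1 in the vector library and 44.6 and 40.6 in pools 1 and 2. The pools were close to each other and about 2.12 times the control. The mean difference in log2(coverage + 1) was 1.05 (SE 0.21, limma adjusted p = 0.11), and 4.18% of all genes tested had a higher fold on this scale. The second transcript of EME1 gave a log2 fold of 1.01. MUS81 itself had 21.9, 31.1 and 22.1 in the vector library, pool 1 and pool 2, and a log2 fold of 0.01 in pool 2. BLM, the helicase that dissolves joined chromosomes, had 6.50, 13.1 and 11.8 and a fold of 0.84 in log2 (SE 0.27, limma adjusted p = 0.20).

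**Figure D2:**
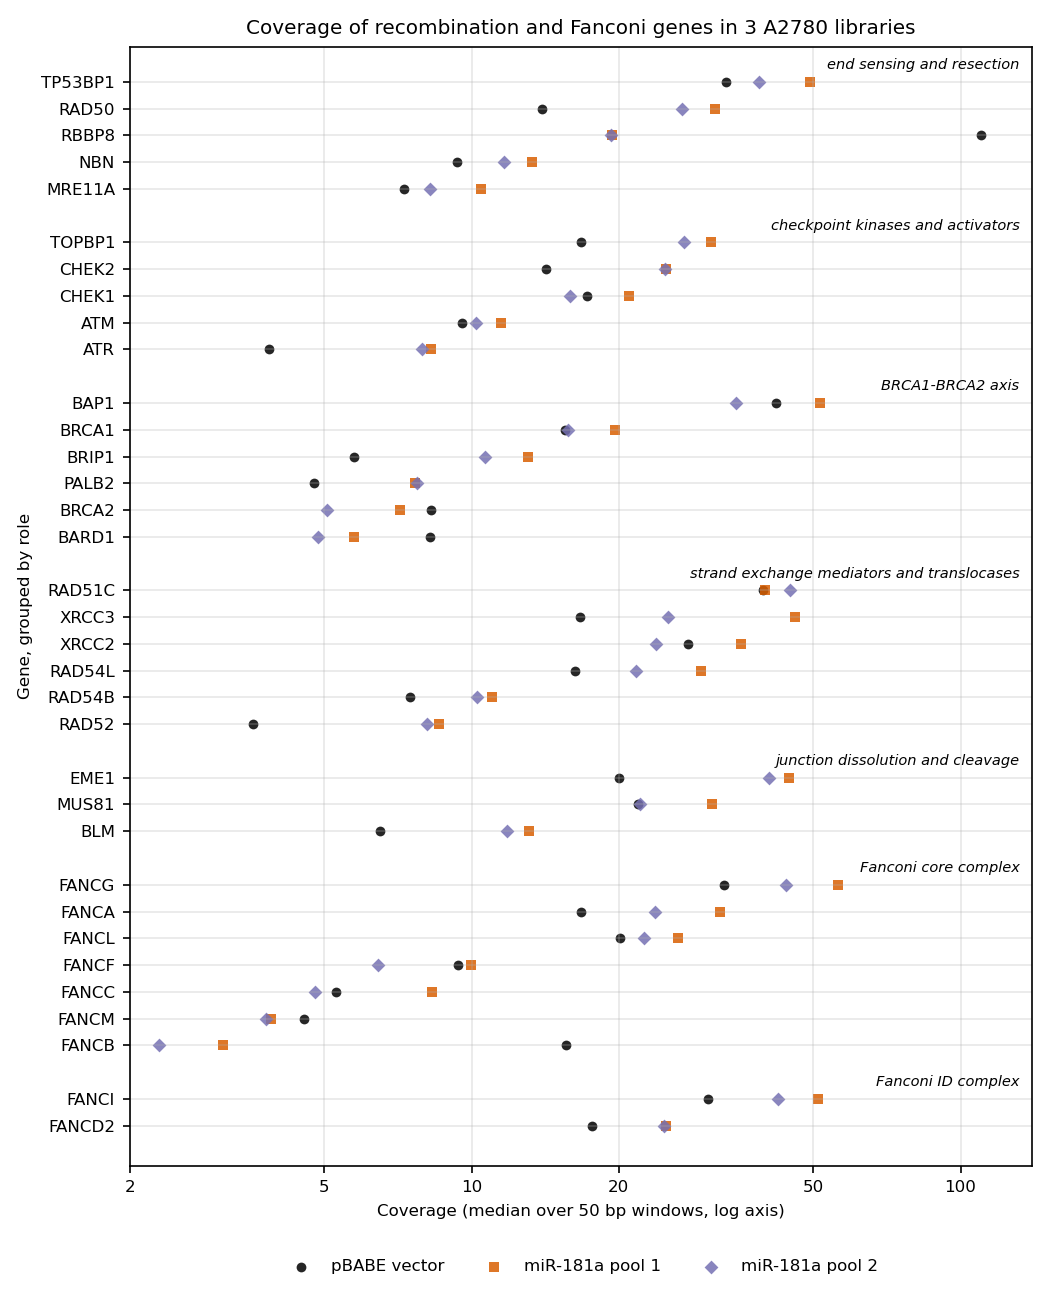
Coverage of each of the 34 genes on a log axis, in the transcript tested, with a circle for the vector library, a square for pool 1 and a diamond for pool 2, and genes grouped by role. The black circle lies left of both pools for 24 genes, such as EME1, RAD52 and ATR, and far to the right for RBBP8 and FANCB.

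Among the 7 Fanconi core genes tested, FANCB fell, 3 were higher in both pools and FANCB and FANCM were lower in both, at a median fold (log2) of 0.22. Over all genes tested, 21.7% fell, and 44.6% were higher and 41.8% lower in both pools. FANCB (chromosome X, 14708510 to 14891377), a subunit of the core complex, had 15.6 in the vector library and 3.10 and 2.30 in pools 1 and 2 in transcript NM_152633. The fold was -2.17 in log2 (SE 0.21, limma adjusted p = 0.030), with both pools below the control. In its other transcript, NM_001018113, coverage was 2.18, 3.02 and 2.19, with no pool below the control. The transcripts differed 7.16-fold in the vector library and 1.03-fold and 1.05-fold in the pools, so the fall was again seen in 1 transcript. Taken as the mean of its transcripts, FANCB did not pass (log2 fold -1.44, limma adjusted p = 0.063). Among transcripts at 0 in both pools, 12.7% had a vector value at least as large as its gap. FANCB was covered in the pools, so this share is not a test of its fall either.

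The other core complex genes did not pass the test. FANCG had the highest pool mean of the 34 genes, with 32.8 in the vector library and 56.2 and 43.96 in pools 1 and 2. FANCA, with 16.7, 32.3 and 23.8 in the same order, had the highest log2 fold of the complex at 0.70 (SE 0.34, limma adjusted p = 0.30). FANCL, the ubiquitin ligase of the complex, had 20.2, 26.4 and 22.5. FANCC had 5.29, 8.28 and 4.79 and FANCF, an adaptor, 9.38, 9.97 and 6.45, with the vector library between the pools in both. FANCM, the DNA translocase that anchors the complex and that carries a site printed above, had 4.55, 3.89 and 3.80. It was lower in both pools by a small amount (log2 fold -0.20, SE 0.06, limma adjusted p = 0.17). FANCE has no vector value and could not be compared. Its coverage was 15.3 in pool 1 and 14.01 in pool 2.

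The genes of the 2 proteins that the core complex marks had higher coverage in both pools. FANCI (chromosome 15, 89787176 to 89860492) had 30.4 in the vector library and 51.2 and 42.4 in pools 1 and 2, a mean log2 difference of 0.60 (SE 0.24, limma adjusted p = 0.25). FANCD2 (chromosome 3, 10068054 to 10143616) had 17.6, 24.96 and 24.7, a mean log2 difference of 0.47 (SE 0.23, limma adjusted p = 0.30), and its second transcript had 13.8, 26.1 and 26.7 and a log2 fold of 0.89. Neither passed the test, and 44.6% of all genes tested also had both pools above the control.

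**Figure D3:**
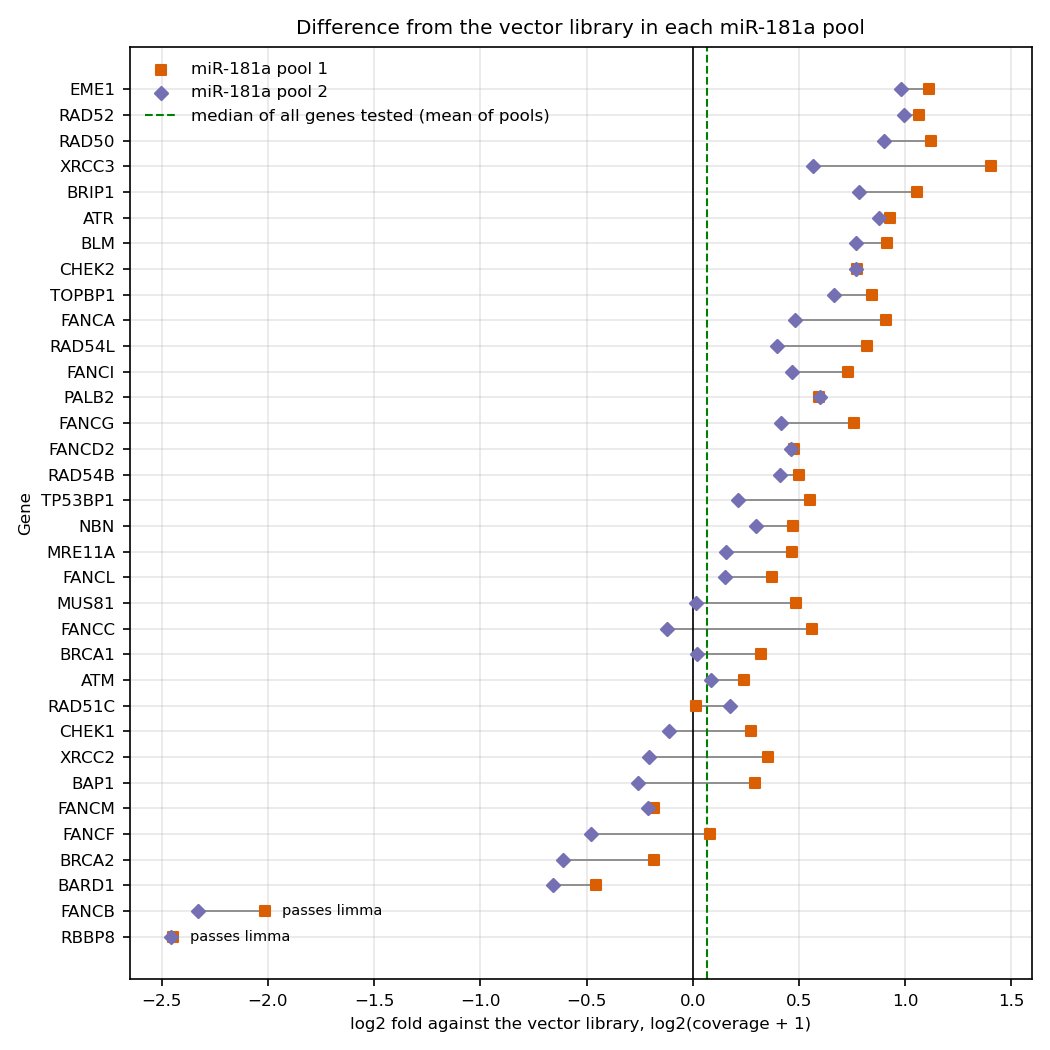
The log2 fold of each gene against the vector library, with a square for pool 1 and a diamond for pool 2 joined by a line, sorted by their mean, and the median of all genes tested (0.07) as a dashed line. Folds run from -2.45 in RBBP8 to 1.05 in EME1, and pool 1 lies to the right of pool 2 in 32 of the 34 genes.

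By level, the pools' mean coverage ran from 2.70 in FANCB to 50.1 ± 8.64 (SD, n = 2) in FANCG. Next to FANCG stood FANCI at 46.8 ± 6.22 (SD, n = 2), TP53BP1 at 43.9 ± 7.39 (SD, n = 2), BAP1 at 43.2 ± 11.8 (SD, n = 2), EME1 at 42.6 ± 2.83 (SD, n = 2) and RAD51C at 42.3 ± 3.40 (SD, n = 2). Neighbours in this order overlap in their pool values. XRCC3 at 35.5, XRCC2 at 29.8, RAD50 at 29.2, TOPBP1 at 29.0, FANCA at 28.0 and MUS81 at 26.6 completed the 12 highest. ATM, ATR, PALB2, FANCC, BRCA2, BARD1, FANCM and FANCB were among those below 11, so that BRCA2 at 6.10 ± 1.47 (SD, n = 2) had less coverage than BRCA1 at 17.7 ± 2.77 (SD, n = 2).

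Transcripts of the same gene disagreed mainly in the vector library. Of the 35 genes, 17 have several transcripts in the table. Their values were over 2-fold apart in the vector library for RBBP8 (7.85-fold), FANCB, ATM and BRCA1, and for no gene in either pool, where the widest were FANCA and RAD51C at 1.63-fold and 1.58-fold in pool 2. Over the 3825 tested genes with several transcripts, all above 0 in every library, 29.6% had transcripts over 2-fold apart in the vector library and 6.41% and 6.43% in the pools. Of the 2725 genes that fell, 1094 have several transcripts, and 231 of these (21.1%) had a transcript with a mean log2 fold above 0, as RBBP8 and FANCB did. When each transcript was fitted on its own, an alternative chosen after the data were seen, the same 2 transcripts fell and none rose among 58 tested (17.2% and 1.13% of all 19181). At an unadjusted p under 0.05, 5 of the 58 were higher and 2 lower in that limma fit, against 6.75% and 22.6% of all transcripts. Of the 58, 46 lay above the vector library in both pools (50.8% of all), and their median fold on the log2 scale was 0.42 against 0.21 for all transcripts.

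**Figure D4:**
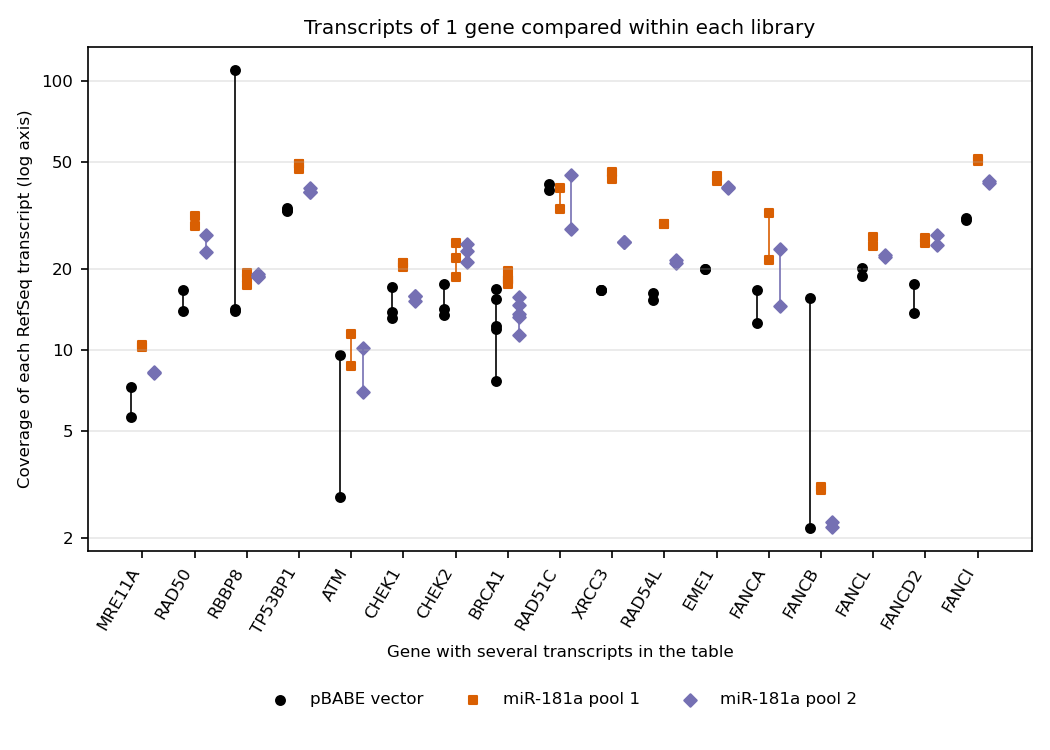
Coverage on a log axis of every RefSeq transcript of the 17 genes with several, with a circle for the vector library, a square for pool 1 and a diamond for pool 2, and a line from the lowest to the highest transcript. The transcripts of RBBP8, FANCB, ATM and BRCA1 lie apart in the vector library and close together in the pools.

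The 7 genes with a site had a median log2 fold of 0.31, with 5 higher and 1 lower in both pools, and the 27 without one had 0.46, with 19 higher and 4 lower. Of all genes tested, 44.6% were higher and 41.8% lower in both pools. Over all genes tested the medians were 0.09 with a site and 0.07 without. These are descriptions of small groups, and the difference between them was not tested.

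Other genes of recombination, Fanconi support, damage signalling and end joining, 73 in all and 71 of them tested, gave 0 that rose and 3 that fell by limma, against 1.00% and 21.7% of all genes. At an unadjusted p under 0.05, 1 was higher and 9 lower, against 5.39% and 27.8%. The median log2 fold was 0.19, with 38 higher and 20 lower in both pools (44.6% and 41.8% of all genes tested). Among the 3 that fell, RAD51L1 was lower in both pools in each of its 3 transcripts, and RECQL5 in 1 of 3. RAD51L1, a relative of RAD51C now named RAD51B, fell from 13.5 to 2.91 and 2.68 (log2 fold -1.94, SE 0.10, limma adjusted p = 0.010). RECQL5, a helicase that limits recombination, had 68.6 in the vector library and 12.3 and 10.1 in the pools in the transcript tested (log2 fold -2.51, SE 0.28, limma adjusted p = 0.041). C19orf40, which encodes the FANCM partner FAAP24, fell from 62.4 to 3.70 and 5.40 (log2 fold -3.53, SE 0.37, limma adjusted p = 0.037). The 12 end-joining and PARP genes had a median of 0.62, and the 25 recombination genes 0.07.

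Many of these genes are made in S phase and G2, so proliferation genes are given beside them. Of 20 genes of S phase, 14 were higher in both pools and 1 fell (CCNE2), against 44.6% and 21.7% of all genes tested. Their median log2 fold was 0.49, against 0.07 for all genes tested. Of 20 mitotic genes, 15 were higher in both pools and 1 rose (CENPF), against 44.6% and 1.00% of all genes tested. Their median was 0.72. The summed coverage of the S phase genes was 1839 in the vector library and 2866 and 2302 in pools 1 and 2, and that of the mitotic genes was 1021, 1658 and 1320. Their part in the folds of the recombination and Fanconi genes was not tested.

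Promoters were examined because 24 of the 34 genes lay above the control in both pools. RefSeq promoters (300 bases around the start, most of them upstream, GRCh38.p14) matched 31 of the 35 genes. The E2F motif, searched on both strands as TTTCGCGC, TTTGGCGC, TTTCCCGC or TTTGCCGC, was found in 5 of the 31 (16.1%) and in 3.33% of all 27305 promoters of this length. CCAAT was found in 14 (45.2%), against 35.7%, and the cell cycle homology region, as TTTGAA or TTTAAA, in 4 (12.9%), against 24.3%. The motifs do not overlap in the promoters shown. TOPBP1 has 1 E2F match, and BLM has 3 CCAAT matches and 1 TTTAAA, all in capitals. The members with an E2F match had a median log2 fold of 0.47 and those without 0.31. The medians were 0.49 and 0.24 for CCAAT, and 0.53 and 0.35 for the cell cycle homology region. The median of members with a match was thus higher for each motif, in small groups, and these differences were not tested. Log2 folds ran from 0.07 in XRCC2 to 0.75 in TOPBP1 among the 5 with an E2F match. They ran from 0.16 in ATM to 0.92 in BRIP1 among the 4 with the cell cycle homology region. A match describes the sequence and is not a site of binding.
TOPBP1, chr3:133661892-133662191, minus strand: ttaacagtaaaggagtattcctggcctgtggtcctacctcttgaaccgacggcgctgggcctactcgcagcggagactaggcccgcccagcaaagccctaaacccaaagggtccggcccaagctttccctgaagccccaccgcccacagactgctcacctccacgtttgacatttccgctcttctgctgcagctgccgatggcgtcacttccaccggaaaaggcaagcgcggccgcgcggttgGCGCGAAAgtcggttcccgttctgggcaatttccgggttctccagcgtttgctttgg
BLM, chr15:90717096-90717395, plus strand: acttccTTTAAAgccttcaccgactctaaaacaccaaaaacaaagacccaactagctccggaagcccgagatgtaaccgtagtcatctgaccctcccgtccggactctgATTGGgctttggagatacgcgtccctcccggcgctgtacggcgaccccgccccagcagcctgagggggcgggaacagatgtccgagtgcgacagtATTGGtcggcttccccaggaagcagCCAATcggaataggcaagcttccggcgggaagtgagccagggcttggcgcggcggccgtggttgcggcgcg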

How the data were processed

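RNA from 3 libraries of A2780 cells was enriched for poly-A RNA and sequenced on an Illumina instrument, and the authors mapped reads to hg19 and took as coverage the median of a density profile in 50 bp sliding windows, per the labels' protocols. Which aligner and which annotation were used is not stated in these sources. Log transformation and quantile normalization are named in the protocols, yet the coverage signal as deposited is linear, with quantiles that differ between libraries. The authors' deposited ratio, fold and log columns were not used.

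Blank vector values (308 of 29156 rows) were left out. Each symbol was represented by its row of highest mean coverage in the 3 libraries (18674 genes), and those whose mean exceeded 2.44, the lower quartile once genes at 0 throughout were set aside, were tested (12552). limma 3.58.1 in R 4.3.3 compared log2(coverage + 1) of the 2 miR-181a libraries with the vector library, using a trended eBayes prior and a Benjamini-Hochberg threshold of 0.05 over all genes tested. Folds on this scale understate changes of low genes. The test has 1 residual degree of freedom, and the single vector library is taken to have the same variance. The fit was tested on simulated data. The genes, their lists, tests and rules for naming were chosen with earlier results of these data known. All 35 genes are named, with values per library for those past the test or size rule, the 12 of highest coverage, those with transcripts over 2-fold apart and 6 central genes, and other pathway genes where they passed. Listed symbols that the table gives under older names were matched by accession. The values of 1 other pathway gene that the naming rule also covers are not reported here.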

Additional observations from a re-analysis of the deposited data

How the results depend on the processing

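The number of recombination and Fanconi genes that rose by limma (0) was 3 with no filter, with a pseudocount of 10 and with no variance trend, 2 with a filter at the median, 28 with library medians set equal, 4 with the shift by genes above 50 and 22 with quantile normalization. Of all genes tested, 1.00% rose in the main settings and 1.66% with no filter. The share was 50.6% with medians set equal, 8.28% with the shift and 37.3% with quantile normalization. With a pseudocount of 10 and with no variance trend, 124 and 161 of 12552 genes rose, and with a filter at the median 402 of 8368. Falls were found in 21.7% of all genes in the main settings and in 42.9% with the shift. With a filter at the median 1476 of 8368 fell. With no variance trend and with the mean over transcripts, 2410 and 2490 of 12552 fell. The number of recombination and Fanconi genes that fell (2) was 1 with a filter at the median and with no variance trend, 0 with the mean over transcripts and 5 with the shift. Genes at least 1 log2 unit higher in both pools (0) numbered 3 with a pseudocount of 0.1, 10 with medians set equal, 16 with quantile normalization, and 0 to 5 with 1 pool left out, the 5 without pool 2. Genes at least 1 log2 unit lower (2) numbered 1 with a filter at the median and with a pseudocount of 10. For these size rules the share of all genes tested was computed with the main settings only (2.53% higher and 27.3% lower). The median of all genes was 0.07 there, 0.49 with medians set equal and 0.46 with quantile normalization. The higher counts under those 2 settings therefore do not describe the members alone. The median log2 fold of 0.38 was 0.80 with medians set equal, 0.0034 with the shift and 0.96 with quantile normalization, and 0.26 to 0.49 with 1 pool left out. Under quantile normalization BARD1 (0.52), BRCA2 (0.64) and FANCM (1.40) turned upward and passed. RBBP8 lost its call with the mean over transcripts, and FANCB with that and with no variance trend (limma adjusted p = 0.077). With a filter at the median 24 of the 34 genes were tested, and FANCB was not among them.

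Over all genes, 126 rose and 2725 fell; 278 and 5626 did with no filter, 402 and 1476 with a filter at the median, 1039 and 5390 with the shift. With medians set equal 6355 rose, with quantile normalization 4686, and among genes above 0 in both pools 447. Of the other pathway genes (0 rose, 3 fell), 1 rose with no filter, with a pseudocount of 10, with the transcript chosen by the pools and among genes above 0 in both pools, 4 with a filter at the median, 45 with medians set equal, 6 with the shift and 32 with quantile normalization. Over all genes, 50.6% rose with medians set equal, 8.28% with the shift and 37.3% with quantile normalization. The share was 1.66% with no filter and 4.13% among genes above 0 in both pools. With a pseudocount of 10 it was 124 of 12552, with the transcript chosen by the pools 138 of 12326 and with a filter at the median 402 of 8368. Those that fell numbered 7 with a filter at the median and among genes above 0 in both pools, 12 with medians set equal, 20 with the shift and 8 with quantile normalization. The cause of these differences was not tested. The fit of genes above 0 in both pools and that of each transcript were chosen after seeing the data. No paired analysis was possible because the single vector library carries no replicate number. With 1 pool left out no test has residual degrees of freedom, so only folds were computed. Without counts, what depth limits cannot be given.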
